A study of Mus musculus with 4 samples.

Results

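The nuclear genes of the mitochondrial respiratory chain were followed in Lgr5-high intestinal stem cells from mice with and without the type I interferon receptor. Members were taken by symbol: names that begin with Ndufa, Ndufb, Ndufc, Ndufs, Ndufv, Uqcr, Cox4 to Cox8 or Atp5, together with Sdha, Sdhb, Sdhc and Sdhd. The RefSeq gene table held 115 such symbols, of which 19 were pseudogenes without a named probe. Of the 96 protein-coding genes, 93 had a named probe and 90 passed the filter on dim probes, among 24866 genes tested. Ndufb1, Ndufb4b and Ndufb4c had no named probe, and Cox7b2, Cox8b and Cox8c were not well above background on any of the 4 arrays.

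Control mice were Lgr5-EGFP-Ires-CreERT2 knock-in mice, in which a fluorescent reporter is driven from the Lgr5 locus. Knockout mice carried the same reporter with Ifnar1-/-, the loss of 1 chain of the type I interferon receptor, and the labels name no cell type to which that loss is limited. Both groups were given poly(I:C), which mimics viral double-stranded RNA, by intraperitoneal injection at 2 mg/kg every day for 1 week, so no group was untreated. Age, sex and the number of animals behind each sample are not given in the sources used here. Each group had 2 samples, each on its own single-colour Agilent array. The first replicates of both groups shared slide 1 and the second replicates slide 2. The labels do not say whether the samples came from separate animals, so the spread that p-values measure may be technical.

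The respiratory chain passes electrons from NADH and succinate to oxygen and uses the proton gradient it builds to make ATP. Complex I (NADH dehydrogenase) and complex II (succinate dehydrogenase) feed electrons to ubiquinone. Complex III (cytochrome bc1) hands them to cytochrome c, complex IV (cytochrome c oxidase) reduces oxygen, and complex V (ATP synthase) is driven by the returning protons. Most subunits are nuclear genes, and their promoters are known for sites of NRF1, of ETS-family factors such as GABP, and of YY1. Lgr5 stem cells of the crypt are known for high mitochondrial activity, while neighbouring Paneth cells are known to be more glycolytic.

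Values are log2 processed signal minus the array's 75th percentile, so 0 is the array's 75th percentile and a difference of 1 is a doubling. They compare 1 probe across arrays and give no order of abundance between genes. The share of spots well above background ran from 63.3% to 67.7%, with 0 saturated. Precision is limited by the number of arrays. Ifnar1 was at -0.21 and -0.37 in the control and at -1.76 and -2.28 in the knockout (adjusted p = 0.0496 in limma with slide block and 0.478 without). Where its probe lies relative to the disrupted sequence is not known here. Of 12 interferon-stimulated genes, 12 lay below the control on both slides, with a median difference of -3.60. With the slide block 7 of them were called lower, against 0.33% of all genes. The regulator gene Irf7 differed by -4.35 and Xaf1 by -3.74. With 1 variance prior for all brightness levels, a setting added after the data were seen, the slide-block fit called 0 genes in all, these and Ifnar1 included. Of 8 stem cell markers, 8 were well above background on all 4 arrays. Lgr5 was at 3.04 and 2.82 in the control and at 3.32 and 2.93 in the knockout.

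Promoter sequences were read from RefSeq (GRCm38.p6), 250 bases before to 50 after a gene's start. They matched 74 of the 90 members, with 79 windows. The motifs searched on both strands were, for NRF1, 2 GCGC blocks with any 2 bases between them, CCGGAAG for ETS factors, AAGATGGC for YY1 and, for interferon-activated factors, 2 GAAA blocks with any 2 bases between them. No match of one motif was removed for overlapping another. The 5 windows below are shown because they carry these motifs in members described further on, with every match in capitals and the gene's strand read 5′ to 3′.
Sdha (complex II), chr13:74350191-74350490, minus strand: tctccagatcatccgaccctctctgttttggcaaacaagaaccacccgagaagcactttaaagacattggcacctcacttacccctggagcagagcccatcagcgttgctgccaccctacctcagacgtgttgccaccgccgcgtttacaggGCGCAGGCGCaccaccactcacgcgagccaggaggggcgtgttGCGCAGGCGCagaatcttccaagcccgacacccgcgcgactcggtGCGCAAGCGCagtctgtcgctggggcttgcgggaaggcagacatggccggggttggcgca
Uqcrc1 (complex III), chr9:108936398-108936697, plus strand: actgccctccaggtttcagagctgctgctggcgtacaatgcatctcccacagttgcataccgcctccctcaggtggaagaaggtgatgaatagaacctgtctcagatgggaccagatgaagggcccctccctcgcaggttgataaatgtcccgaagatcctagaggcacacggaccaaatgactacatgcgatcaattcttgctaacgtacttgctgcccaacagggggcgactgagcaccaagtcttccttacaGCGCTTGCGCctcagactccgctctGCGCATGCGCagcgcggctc
Cox6a1 (complex IV), chr5:115348909-115349208, minus strand: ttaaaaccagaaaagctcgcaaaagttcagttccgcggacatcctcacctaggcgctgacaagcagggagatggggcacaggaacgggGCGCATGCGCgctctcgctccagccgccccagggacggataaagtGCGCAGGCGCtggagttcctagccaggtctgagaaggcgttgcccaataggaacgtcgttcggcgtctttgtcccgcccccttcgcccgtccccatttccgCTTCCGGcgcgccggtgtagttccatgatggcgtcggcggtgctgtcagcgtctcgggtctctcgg
Cox8a (complex IV), chr19:7217567-7217866, minus strand: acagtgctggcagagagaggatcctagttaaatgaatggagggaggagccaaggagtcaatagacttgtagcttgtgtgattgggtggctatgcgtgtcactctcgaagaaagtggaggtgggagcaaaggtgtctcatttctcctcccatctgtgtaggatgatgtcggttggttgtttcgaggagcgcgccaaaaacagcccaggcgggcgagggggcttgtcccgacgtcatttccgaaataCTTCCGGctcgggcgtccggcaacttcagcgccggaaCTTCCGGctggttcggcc
Atp5j (complex V), chr16:84834927-84835226, minus strand: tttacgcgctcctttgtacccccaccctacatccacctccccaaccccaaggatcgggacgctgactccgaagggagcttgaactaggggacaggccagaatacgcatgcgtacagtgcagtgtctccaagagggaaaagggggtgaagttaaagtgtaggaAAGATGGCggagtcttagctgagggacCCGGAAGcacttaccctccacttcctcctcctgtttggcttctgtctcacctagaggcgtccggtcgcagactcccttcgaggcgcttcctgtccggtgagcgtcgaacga

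The Sdha window held 3 NRF1 matches, at -98, -55 and -10 from the start. The Cox6a1 window held 2 NRF1 matches and 1 ETS match, the Uqcrc1 window 2 NRF1 matches and the Cox8a window 2 ETS matches. For Atp5j, RefSeq lists a further start whose window had no match. The NRF1 motif lay in 22 of the 79 member windows (27.8%), against 6.23% of all 32851 promoter windows and 14.7% of the windows of genes with a mean level above 2. The ETS motif lay in 24.1% of member windows against 8.86% of all and 19.0% of those brighter genes. The YY1 motif lay in 13.9% against 2.75% and 5.15%. The interferon-type motif lay in 2.53% of member windows, those of Ndufa9 and Ndufs3, against 3.44% of all. A match is a run of letters and not a shown site.

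Respiratory chain genes lay slightly higher in the knockout than in the control, and no single one passed the test. The median difference over the 90 members was 0.19 (1.14-fold), with 0.21 on slide 1 and 0.16 on slide 2, and the median over all genes was 0.02. Of the 90, 75 were higher in the knockout on both slides, 2 were lower on both and 13 were mixed, while 33.9% of all genes were higher on both slides and 27.3% lower on both. For 26 members both knockout samples lay above both control samples, and for 0 members below, against 14.5% and 11.5% of all genes. These counts describe the list and are not a test of it.

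No member was called in either fit. Limma without a slide term called 0 of 90 members and 0% of all genes after Benjamini-Hochberg adjustment, and at an unadjusted p under 0.05 it held 1 member higher, Cox6b2, and 0 lower, against 1.04% and 1.72% of all genes. Limma with the slide as a block called 0 members in either direction, with 0.0322% of all genes called higher and 0.33% called lower. The smallest adjusted p of a member was 0.18. At an unadjusted p under 0.05 that fit held 40 members higher and 0 lower, against 7.31% of all genes higher and 4.93% lower. The count of 40 rests on letting the variance follow intensity. With the single variance prior the slide-block fit held 1 member at that level, 0 were called and the smallest adjusted p was 0.598. The SE printed below for single members comes from the slide-block fit with the intensity trend. For each of them it was smaller than the SE without a slide term. It was 0.07 against 0.20 for Cox6a1, 0.07 against 0.26 for Cox4i1 and 0.13 against 0.35 for Ndufv3. In limma without a slide term the smallest adjusted p of a member was 0.999963.

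**Figure D1:**
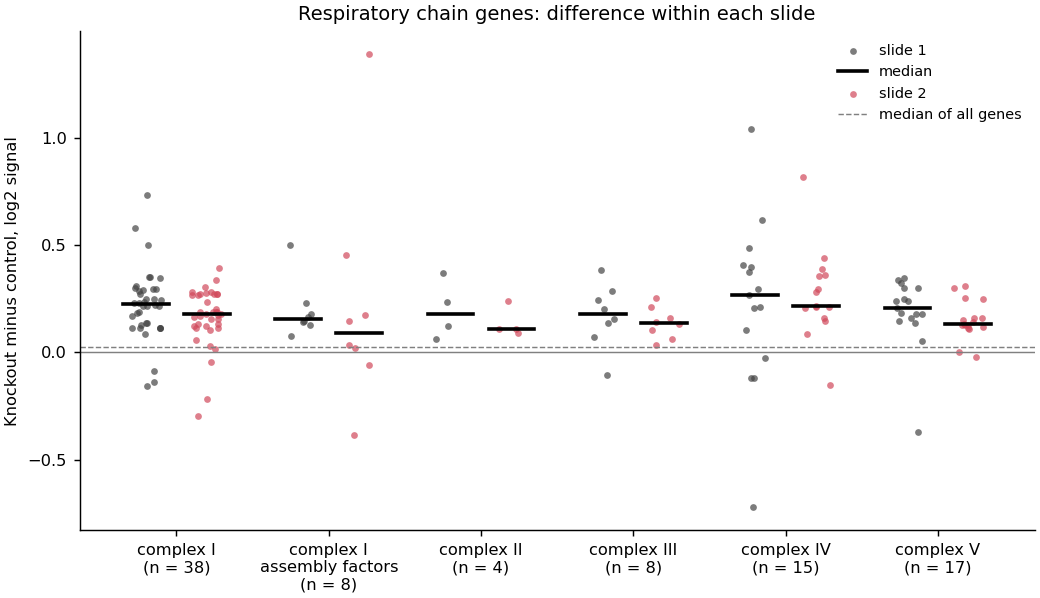
Knockout minus control in log2 signal for each of the 90 members, by complex, with slide 1 in grey and slide 2 in red; bars are medians and the dashed line is the median of all genes (0.02). In each of the 6 classes both slide medians lie above that line.

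Slide 2 read higher than slide 1 in both groups for 72 of the 90 members, with a median gap of 0.32 between the controls and 0.29 between the knockouts (0.10 in each over all genes). The mean slide gap was larger than the difference between knockout and control for 61 of the 90 members and for 16735 of the 24866 genes. The median level over members was 3.88 and 4.001 in controls 1 and 2 and 4.07 and 4.23 in knockouts 1 and 2. Leaving out an array therefore moved the value: the member median was 0.02 without control 1, 0.06 without knockout 2, 0.34 without control 2 and 0.32 without knockout 1. Over all genes the median was -0.03, -0.0079, 0.07 and 0.08 in the same order. Without control 1, 51 members were higher and 39 lower, and 46.5% of all genes were higher.

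**Figure D2:**
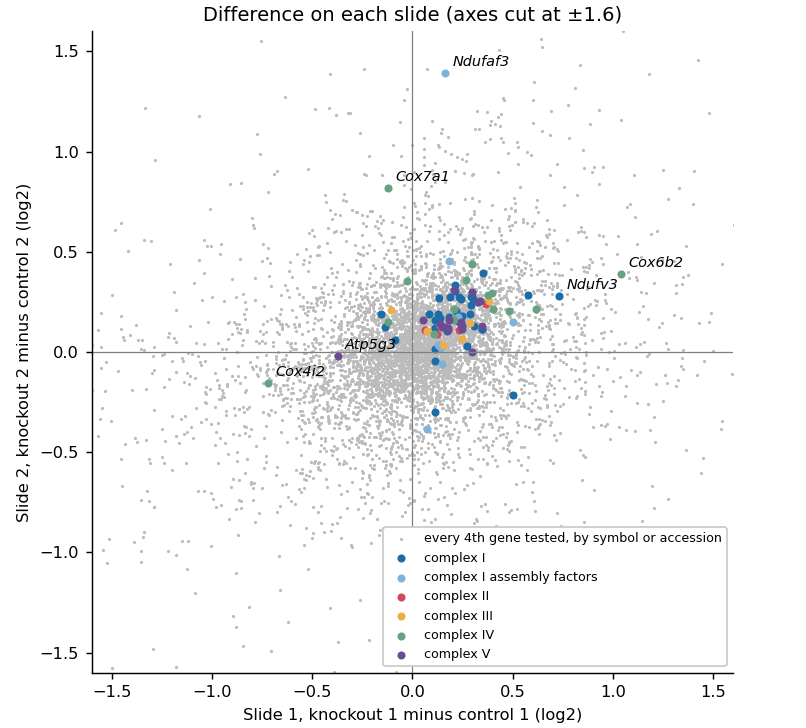
Difference between knockout and control on slide 1 (x axis) and slide 2 (y axis), in log2 signal, for respiratory chain genes (colours, by complex) and every 4th gene tested (grey). Most members lie close together in the upper right, with Ndufaf3, Cox7a1, Cox6b2 and Cox4i2 away from the rest.

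Brightness moved with the difference. The median level of members was 4.08, against -0.45 for all genes, and the median difference over all genes grew from -0.0045 below a level of -2 to 0.11 between 5 and 6, and was 0.03 above 6, where 8 of 8 members were higher on both slides. Among the 5273 genes above a level of 2, the median difference was 0.07 and 48.7% were higher on both slides. The 77 members above that level had a median of 0.19, and 70 of them were higher on both slides. At an unadjusted p under 0.05 in the slide-block fit, 38 of these 77 were higher, against 17.1% of the 5273 genes. Both knockouts lay above both controls for 24 of the 77, against 15.5% of the brighter genes. With quantile scaling, which equalises the arrays at every brightness, the member median was 0.14 and that of all genes 0.02. The part of brightness in the result was not tested beyond these values.

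**Figure D3:**
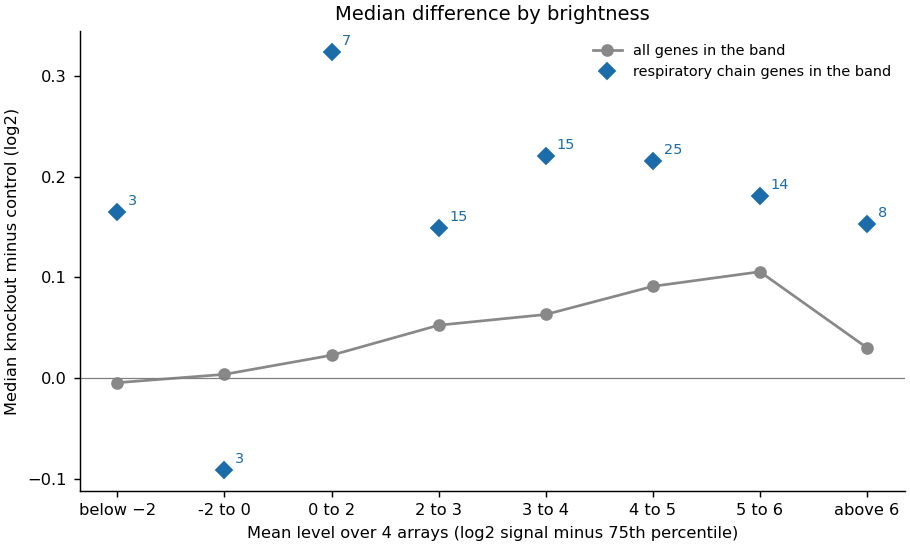
Median difference between knockout and control (y axis, log2) by mean level over 4 arrays (x axis, log2 signal minus the 75th percentile), for all genes (grey line) and for respiratory chain genes (blue, with their number). Members lie above all genes in 7 of the 8 bands, and below them between -2 and 0, where there are 3 members.

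Complex I had 38 genes by symbol, Ndufa4 and Ndufa4l2 among them, with a median difference of 0.20 (slides at 0.22 and 0.18). Of these, 32 were higher on both slides, 0 lower on both and 6 mixed, and 18 were higher at an unadjusted p under 0.05 with the slide block (7.31% of all genes). With the single variance prior that count was 0. Ndufv1, which binds NADH and the flavin cofactor, was at 3.13 and 3.28 in the control and at 3.34 and 3.59 in the knockout. Both knockout values lay above both control values, with a difference of 0.26 ± 0.09 (SE; limma with slide block, adjusted p = 0.36). Ndufs1, the largest subunit, with iron-sulfur clusters, was at 3.31 and 3.17 in the control and at 3.59 and 3.36 in the knockout. Its groups did not overlap either, and slide 1 was the higher slide for this gene in both groups.

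Ndufv3, a small accessory subunit of the NADH-binding module, had the largest difference of complex I at 0.51 ± 0.13 (SE; limma with slide block, adjusted p = 0.285). It was at 2.16 and 3.06 in the control and at 2.89 and 3.34 in the knockout, so control 1 stood below the other 3 samples, and the difference was 0.06 without it. Ndufb11, a membrane-arm subunit encoded on the X chromosome, differed by 0.30 on slide 1 and 0.27 on slide 2. Ndufa4, named for complex I and since assigned to complex IV, was at 5.01 and 5.64 in the control and at 5.30 and 5.88 in the knockout. Ndufab1, the mitochondrial acyl carrier protein, differed by 0.12 on slide 1 and -0.30 on slide 2. Ndufa4l2, a hypoxia-induced relative of Ndufa4, was dim, with -3.74 and -2.56 as control values and -3.24 and -2.78 as knockout values, with opposite signs on the slides. Other complex I genes, named after their values were seen, sat near 0: Ndufa6 at -0.01, Ndufs7 at -0.0061 and Ndufa7 at 0.01.

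The 10 Ndufb subunits, which belong to the membrane arm, were all higher on both slides, with differences from 0.14 to 0.28. The 15 Ndufa genes ranged from -0.09 to 0.43, with 11 higher on both slides. The 8 Ndufs genes had a median of 0.23, with 6 higher on both slides, and the 2 Ndufc and 3 Ndufv genes were higher on both.

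The symbol prefix also takes in 8 complex I assembly factors, which help build the complex and are not part of it. Their median difference was 0.14 (slides at 0.16 and 0.09), with 6 higher on both slides. Ndufaf3 had the highest difference of all members, 0.78, but it was dim, with -2.53 and -4.50 as control values and -2.37 and -3.11 as knockout values. On control 2 it was not well above background (3 of 4 arrays passed), and no fold is given. Without it the assembly factors had a median of 0.08. Ndufaf6 was the lowest of the class, at 0.07 on slide 1 and -0.38 on slide 2.

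Complex II, the succinate dehydrogenase shared with the tricarboxylic acid cycle, had 4 genes. The 4 were higher on both slides, and their median was 0.14. Sdhc, a membrane anchor, was at 4.09 and 4.31 in the control and at 4.45 and 4.55 in the knockout. Its groups did not overlap, with a difference of 0.30 ± 0.08 (SE; limma with slide block, adjusted p = 0.288). Sdhd, the other anchor, was at 4.68 and 4.71 in the control and at 4.80 and 4.80 in the knockout, again without overlap. Sdha, the flavoprotein that oxidises succinate and whose promoter window held 3 NRF1 matches, differed by 0.23 on slide 1 and 0.11 on slide 2, with overlapping groups. Sdhb, the iron-sulfur subunit, had the smallest difference of the complex by brightest probe, 0.06 on slide 1 and 0.11 on slide 2. That order depends on the probe: a dimmer Sdhb probe differed by 0.39 and 0.09, and a dimmer Sdhc probe by 0.16 and 0.12.

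Complex III had 8 genes and a median of 0.15 (slides at 0.18 and 0.14), with 7 higher on both slides. Uqcr11, a small subunit, was at 3.17 and 3.70 in the control and at 3.55 and 3.95 in the knockout, a difference of 0.32 ± 0.09 (SE; limma with slide block, adjusted p = 0.294). Uqcrc2, a core subunit, was at 5.25 and 5.54 in the control and at 5.54 and 5.68 in the knockout, and its groups just failed to overlap. Uqcrh, the hinge protein that meets cytochrome c1, differed by 0.20 and 0.16 on slides 1 and 2. Uqcrfs1, the Rieske iron-sulfur protein, differed by 0.25 and 0.06. The other core subunit gene, Uqcrc1, was the exception of the complex. It was at 3.64 and 2.83 in the control and at 3.54 and 3.04 in the knockout, with slide 1 well above slide 2 and opposite signs on the slides. Its promoter window held NRF1 matches, as that of Sdha did.

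Complex IV had the highest median of the 5 complexes, 0.31 (1.24-fold), with 0.27 on slide 1 and 0.21 on slide 2. Of its 15 genes, 11 were higher on both slides and 1 was lower on both. At an unadjusted p under 0.05 with the slide block 9 were higher (7.31% of all genes), or 1 with the single variance prior. That it lay above the other complexes was not tested. Its median was 0.26 with quantile scaling and 0.23 with normexp background correction, the highest of the 5 complexes under both. These settings reprocess the same 4 arrays, so they are no separate evidence for that order. The share of its genes higher on both slides, 73.3%, was the lowest of the 5 complexes. Cox6a1, the regulatory subunit in most tissues, was at 6.57 and 6.59 in the control and at 6.86 and 7.03 in the knockout. Its groups stood apart, with the controls close together, and the difference was 0.37 ± 0.07 (SE, 1.29-fold; limma with slide block, adjusted p = 0.18), the smallest adjusted p of any member. Cox4i1, the form of subunit 4 found in most tissues, was at 5.70 and 6.18 in the control and at 6.10 and 6.47 in the knockout. The gap of 0.40 on slide 1 and 0.30 on slide 2 is similar, but knockout 1 lay below control 2 (difference 0.35 ± 0.07, SE; limma with slide block, adjusted p = 0.202). Cox8a was at 5.47 and 5.64 in the control and at 5.74 and 6.001 in the knockout, without overlap (adjusted p = 0.243, limma with slide block).

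Other subunits of complex IV followed with smaller or uneven differences. Cox7a2, the form of subunit 7a outside muscle, was at 4.07 and 4.33 in the control and at 4.47 and 4.54 in the knockout, without overlap. Cox5a, a subunit on the matrix side, differed by 0.21 and 0.16 on slides 1 and 2, also without overlap. Cox5b, a zinc-binding subunit, had opposite signs on the slides: it was at 4.67 and 4.98 in the control and at 4.55 and 5.13 in the knockout. Its group difference was 0.01, and it was -0.04 with quantile scaling and -0.06 with normexp background correction. Cox7a2l, a factor that joins complexes III and IV into supercomplexes, differed by 0.11 and 0.09.

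Forms of complex IV subunits that belong to other tissues were mostly dim or variable. Cox4i2, the lung and hypoxia form of subunit 4, had the lowest difference of all members, -0.44, with -0.68 and -1.52 as control values and -1.40 and -1.67 as knockout values. Control 1 alone stood clear of the rest, and the difference was -0.02 without it. Cox6a2, a heart and muscle form, was at -2.83 and -2.89 in the control and at -2.85 and -2.54 in the knockout. Cox7a1, another muscle form, had differences of -0.12 and 0.82 on the slides. Cox6b2, a testis form named after its values were seen, was at 1.58 and 1.71 in the control and at 2.62 and 2.09 in the knockout, a difference of 0.71 ± 0.17 (SE; limma with slide block, adjusted p = 0.27). Its groups did not overlap, and it differed by 1.04 on slide 1 and 0.39 on slide 2. Cox8b, a muscle form, and the testis forms Cox7b2 and Cox8c were not well above background on any array.

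Complex V had 17 genes and a median of 0.17 (slides at 0.21 and 0.13). Of these, 15 were higher on both slides, 1 was lower on both and 1 was mixed. In the catalytic head, the alpha subunit gene Atp5a1 was at 6.88 and 7.04 in the control and at 7.06 and 7.20 in the knockout, without overlap. The beta subunit gene Atp5b was at 4.15 and 4.56 in the control and at 4.33 and 4.67 in the knockout, with overlap. The rotating gamma subunit gene Atp5c1 differed by 0.24 and 0.15 on slides 1 and 2. The inhibitor of the enzyme carries a symbol outside the prefixes in this table and is not analysed here.

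The membrane ring of complex V is built from a subunit that 3 genes encode, and these genes differed in sign. Atp5g2 was at 4.78 and 5.05 in the control and at 5.11 and 5.30 in the knockout, a difference of 0.29 ± 0.07 (SE; limma with slide block, adjusted p = 0.276). Atp5g1 differed by 0.30 on slide 1 and -0.000146 on slide 2. Atp5g3, named after its values were seen, was at 5.59 and 5.92 in the control and at 5.22 and 5.89 in the knockout, with -0.37 between the samples of slide 1 and -0.02 between those of slide 2. Among the remaining subunits, Atp5md, a small subunit at the dimer interface, differed by 0.30 on each slide, and Atp5j2 by 0.34 and 0.25. Atp5o and Atp5j lie on chromosome 16 with Ifnar1, with 9 and 89 protein-coding genes between them and Ifnar1 in the RefSeq table. Atp5o differed by 0.18 and 0.12 and Atp5j by 0.14 and 0.14 on slides 1 and 2.

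**Figure D4:**
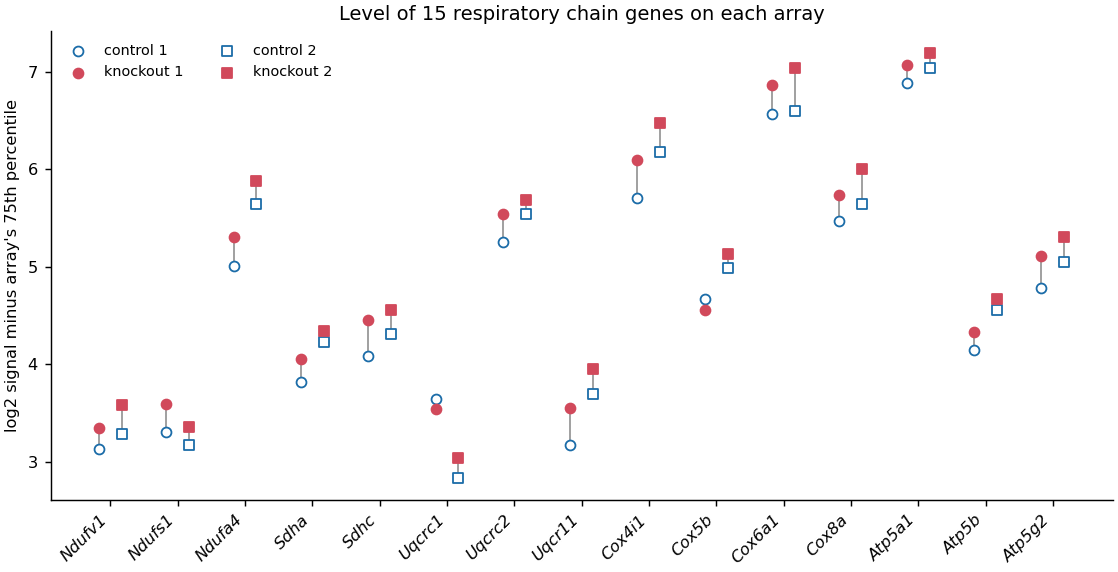
Level of 15 named members on each array (y axis, log2 signal minus the 75th percentile), with control open and knockout filled, slide 1 as circles and slide 2 as squares; a line joins the pair of a slide. The knockout is the upper symbol of each pair except for Uqcrc1 and Cox5b on slide 1, and levels of different genes are not comparable.

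Other probes of the same genes gave a similar picture. Of 23 members with more than 1 probe that passed the filter, 20 had them on the same side. The 30 probes other than the brightest had a median difference of 0.17 (slides at 0.19 and 0.12), and 22 were higher on both slides. The 3 members whose probes disagreed were Cox7c, Ndufa5 and Uqcr10, named after their values were seen. For Cox7c the brightest probe differed by 0.33 and the other 2 by -0.06 and -0.21. The rule takes the brightest probe and was not altered for this gene.

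The members were also described by promoter motif, without a test. The 21 genes with an NRF1 motif had a median difference of 0.16 and the 53 without it 0.21, with 18 and 52 of them higher over group means. Those 21 included Ndufa6, Ndufab1 and Atp5g3, which were lower over group means, and Cox6a1, which was higher. The 19 genes with the ETS motif had a median of 0.19, and so had the 55 without it, with 19 and 51 of them higher. The 11 with the YY1 motif had a median of 0.25 and the 63 without it 0.19, with 10 and 60 of them higher.

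Neighbouring pathways were described from gene lists. The mitochondrial ribosome, which translates the subunits encoded in mitochondrial DNA, had 78 genes whose median was 0.15 (slides at 0.17 and 0.12), and 55 were higher on both slides. Mrpl48 differed by 0.51 and Mrpl49 by 0.47 (limma with slide block, adjusted p = 0.177 and 0.172). Of 20 genes of the tricarboxylic acid cycle and pyruvate entry, 19 were higher on both slides and the median was 0.22. Cs, the citrate synthase, was at 3.15 and 3.32 in the control and at 3.50 and 3.59 in the knockout, and Idh3g, a regulatory subunit of isocitrate dehydrogenase, differed by 0.38. Of 20 glycolysis genes, 14 were higher on both slides and 3 lower, with a median of 0.20. Tpi1, the triose phosphate isomerase, differed by 0.43, and the aldolase gene Aldoc by 0.89 (limma with slide block, adjusted p = 0.0914). With the slide block, 0 genes of any of these 3 lists were called in either direction, against 0.0322% of all genes called higher and 0.33% lower.

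Further lists cover genes that serve the chain without being part of it. The 40 measured assembly factors outside the prefixes had a median of 0.11, with 20 higher on both slides. In that list Cox20, which helps mature complex IV, differed by 0.29 and Timmdc1, a complex I factor, by -0.13. The 16 genes of mobile electron carriers, cytochrome c and ubiquinone synthesis among them, had a median of 0.0083, with 4 higher and 4 lower on both slides. Its Etfb, an electron transfer flavoprotein subunit, differed by 0.24 and Coq9, of ubiquinone synthesis, by 0.33. The 19 regulators of mitochondrial biogenesis had a median of 0.08, with 8 higher and 2 lower on both slides. Nrf1, whose product binds the NRF1 motif, was at 2.14 and 1.33 in the control and at 2.60 and 1.61 in the knockout, higher by 0.46 and 0.28. The genes for the factors of the other motifs, named after their values were seen, did not all follow. Yy1 differed by -0.13 and -0.11 on slides 1 and 2, and the GABP gene Gabpa by 0.04 and 0.13. Polg2, a subunit of the mitochondrial DNA polymerase, differed by 0.42. The 18 antioxidant, carrier and uncoupling genes had a median of 0.16, with 15 higher on both slides. The ADP/ATP carriers Slc25a4 and Slc25a5 differed by 0.61 and 0.23 (limma with slide block, adjusted p = 0.117 and 0.341). In these 4 lists 0 genes were called with the slide block, against 0.0322% of all genes called higher and 0.33% lower.

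**Figure D5:**
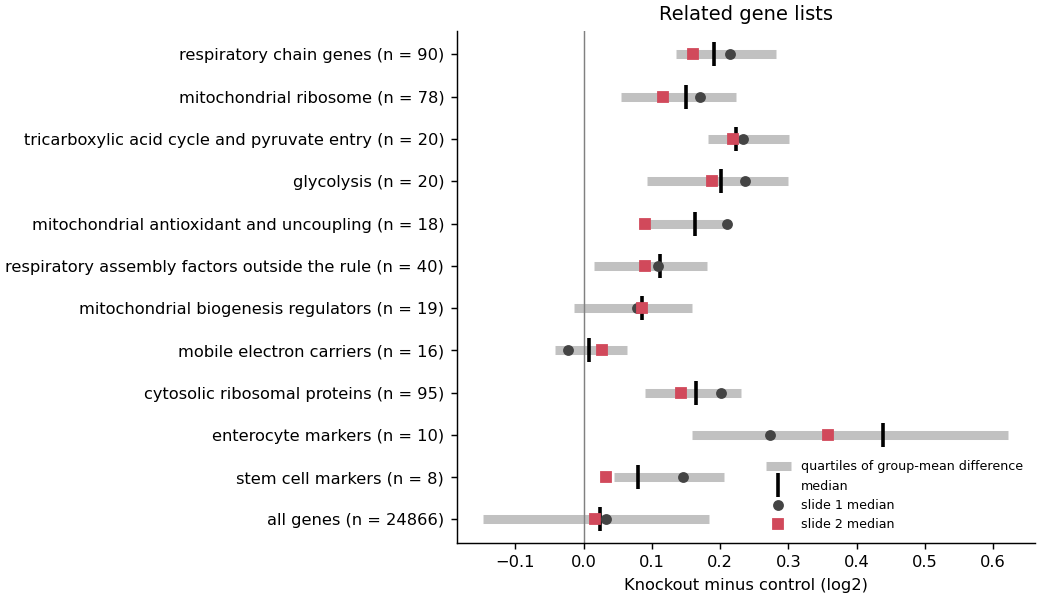
Median difference between knockout and control (x axis, log2; black tick) with quartiles (grey bar) and the medians of slide 1 (grey circle) and slide 2 (red square) for respiratory chain genes, related lists and all genes. The mobile electron carriers lie near 0, and the cytosolic ribosomal proteins at 0.16.

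Other gene groups and cell type markers differed in both directions. The 95 cytosolic ribosomal protein genes, a list added after results were seen, had a median of 0.16, with 79 higher on both slides. Of 10 enterocyte markers, 8 were higher and 1 was lower on both slides. Their summed level was 5.79 and 6.01 in the control against 6.25 and 6.37 in the knockout, and Lct was not well above background on all 4 arrays. Summed levels add the linear signals of a list, so they follow its brightest probes and do not measure the abundance of a cell type. The brightest enterocyte marker had a mean level of 5.72, against a list median of -0.82. The median difference of the enterocyte list was 0.44. In that list Fabp2, a fatty acid binding protein, differed by 0.49 and Alpi, the brush border phosphatase, by 1.14. Alpi was dim, with -2.37 and -3.37 as control values and -1.51 and -1.95 as knockout values. Of 8 measured Paneth cell markers, 8 were lower on both slides. Their summed level was 8.88 and 9.24 in the control against 6.92 and 7.62 in the knockout. With the slide block 6 were called lower, against 0.33% of all genes. Without the block, and with the single variance prior, 0 were called. Clps differed by -3.04 and Ang4 by -2.50. Of 7 enteroendocrine markers 6 were lower and 1 was higher on both slides, with summed levels of 2.94 and 3.55 against 2.12 and 2.79. Chgb differed by -0.81 and Cpe by -1.17. Goblet cell markers summed to 7.13 and 7.16 in the control against 6.77 and 7.24 in the knockout. Of these 7, 1 was higher and 2 were lower on both slides, with a median of -0.20. Spink4 differed by -1.55, with both knockouts below both controls (limma with slide block, adjusted p = 0.0816), and Zg16 by 0.50. The 4 measured tuft cell markers summed to 0.98 and 1.19 against 0.94 and 1.38, with 1 higher and 2 lower on both slides. Pou2f3 differed by 0.56 and Rgs13, which was dim (-3.07 and -3.39 in the control), by -0.30. The 8 leukocyte markers, 7 of them well above background on all 4 arrays, summed to 7.75 and 8.42 against 7.72 and 8.38. The brightest of them had a mean level of 8.02, against a list median of -0.21. Of these 8, 3 were higher and 2 lower on both slides, with a median of 0.04. The difference was 0.67 for Cd8a, which was dim (-4.03 and -3.77 in the control). It was -2.64 for the lysozyme gene Lyz2, with an adjusted p in limma of 0.0083 with the block and 0.293 without it. Of 8 stem cell markers 5 were higher on both slides and 1 lower, with summed levels of 6.91 and 7.04 against 6.97 and 7.05. Lgr5 differed by 0.20 and Tnfrsf19 by 0.67. The part of these cell types in the difference of respiratory chain genes was not tested. In bulk samples, a change in the number of cells of a type and a change in RNA per cell cannot be told apart.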

How the data were processed

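RNA of 2 control and 2 knockout samples was amplified, labelled with Cy3 and hybridised to 4 Agilent mouse arrays, per the labels' protocols. Per the file headers, Feature Extraction 12.0.3.1 made the deposited spot intensity, which is background-corrected. Version 11.5.1.1 is the one in the submitters' processing notes. The series table holds the same intensity times a constant per array, scaled by the authors to a target not given in the sources used here. Control and outlier spots were left out, log2 values of a probe's spots averaged, and each array's 75th percentile over spots subtracted. A probe was kept (35422 of 55681) if both arrays of either group had it well above background. RefSeq accessions (GRCm38.p6) named 28331 probes. A gene is its brightest probe. The array annotation uses mm9, so probes carry no coordinates here.

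Groups were compared with limma 3.58.1 (R 4.3.3; lmFit, eBayes with an intensity trend), Benjamini-Hochberg adjustment at 0.05, without and with the slide as a block (2 and 1 residual degrees of freedom). Slide barcodes in the headers pair the replicate numbers; the gap between slides in the controls correlated with that in the knockouts at 0.563 across genes, which are not replicates. Lists are described by counts and medians. The fits were also run on simulated data, and their recovery of differences as small as those described here is not reported. Members and lists were chosen with earlier results of these data known. Named genes are called members, the 3 with the smallest slide-block p per complex, fixed catalytic and isoform genes, extremes, 2 per other list and Ifnar1. Normexp ran on the median signal. Alternatives covered the block, scaling, background, values, filter, probe rule, outliers, variance trend and each array left out. The values of 1 member that the rule names are not reported here.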

Additional observations from a re-analysis of the deposited data

How the results depend on the processing

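In every setting run 0 members were called. With the slide as replicate block, 8 genes were called higher and 82 lower over all genes, against 0 and 0 without it; the block changed no call of a member. Quantile scaling gave a median difference of 0.14 for all members, 0.16 for complex I, 0.0879 for complex II, 0.0935 for complex III and 0.26 for complex IV, -7.63e-05 for Uqcrc1 and -0.0402 for Cox5b. Normexp gave 0.23 for complex IV and -0.0627 for Cox5b. The authors' deposited values gave 0.15 for all members, 0.16 for complex I, 0.11 for complex III, 0.27 for complex IV and -0.0259 for Cox5b, since a constant per array shifts all genes alike. Under them 47.4% of all genes were higher, against 54.2%. Without a filter, which adds the 3 dim members, complex IV was at 0.26, and with probes above background on all arrays, which drops Ndufaf3, the assembly factors were at 0.0809. For the other moves the cause was not tested. Counting Ndufa4 in complex IV left that complex at 0.31.

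Leaving out 1 array leaves the slides unequal between groups, and the lone sample is assumed to vary like the other group. The median then ranged from 0.0156 to 0.34 for all members, from 0.00024 to 0.36 for complex I, from 0.14 to 0.23 for assembly factors, from 0.0295 to 0.31 for complex II, from 0.0296 to 0.35 for complex III, from 0.15 to 0.45 for complex IV and from 0.0132 to 0.30 for complex V. Genes called ranged from 0 to 3 higher and from 9 to 88 lower.

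Among the members that the rule names, the sign turned when 1 array was left out for Ndufa4 from -0.0517 to 0.58, Sdha from -0.0347 to 0.38, Uqcrh from -0.0251 to 0.39, Ndufa4l2 from -0.45 to 0.73 and Sdhb from -0.10 to 0.27. It also turned for Cox5b from -0.27 to 0.30, Cox7a2l from -0.14 to 0.34, Atp5b from -0.061 to 0.35, Ndufab1 from -0.47 to 0.29, Uqcrc1 from -0.35 to 0.46, Cox7a1 from -0.00299 to 0.70 and Ndufaf3 from -0.21 to 1.76. The difference kept its sign but ranged widely for Ndufv3 (0.0561 to 0.96), Uqcr11 (0.0537 to 0.58), Cox4i1 (0.11 to 0.58) and Atp5j2 (0.0247 to 0.56). Members named outside the rule are not covered by these ranges.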
